A study of Zea mays with 4 samples.

Results

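The genes described here are annotated as subunits or assembly factors of the mitochondrial respiratory chain and ATP synthase of maize. They were chosen by words of the protein description in the deposited gene tables, the names of NADH dehydrogenase (or NADH-ubiquinone oxidoreductase), succinate dehydrogenase, ubiquinol-cytochrome c reductase (cytochrome b-c1), cytochrome c oxidase and ATP synthase. Descriptions that name the chloroplast or plastoquinone were left out, as was the gene GRMZM2G090487. This gave 83 of the 34567 genes listed in any library, of which 76 had enough counts to be tested. RNA was sequenced from whole endosperm, the storage tissue of the kernel, of dek mutant kernels and of wild-type kernels, both at 10 days after pollination, with 2 libraries (A and B) for each genotype. Each library pooled 8 to 10 individuals taken from segregating ears, of which there were 2. The labels give neither the mutated gene nor its allele or the genetic background, and do not say which pools shared an ear, so the genotype could not be checked by the mutated transcript.

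The respiratory chain sits in the inner mitochondrial membrane and passes electrons from NADH (complex I) and succinate (complex II) through ubiquinone, complex III and cytochrome c to complex IV, which reduces oxygen. Complexes I, III and IV pump protons, and ATP synthase (complex V) uses the resulting gradient to make ATP. Most subunits are encoded in the nucleus and imported, while a core set of complexes I, III, IV and V is encoded in the mitochondrial genome, so that the complexes combine products of both genomes. In developing endosperm, this ATP feeds the synthesis of starch and storage protein.

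By their descriptions, 36 of the 83 members were nuclear-type subunits of the mitochondrial complexes, 19 of complex I, 2 of complex II, 6 of complex III, 2 of complex IV and 7 of complex V. A further 7 were assembly factors, 3 for complex I and 4 for complex IV. Names of mitochondrion-encoded subunits were carried by 20 members, 10 of complex I and 10 of complex IV. Of those placed in complex I, GRMZM2G329636 was also described as ATP synthase subunit a, of complex V. The words of the rule also took in genes outside the mitochondrion: 8 members had names or annotation entries of plastid-encoded proteins and 5 were subunits of the vacuolar proton ATPase. For 5 ATP synthase delta or B chain genes the description did not name the organelle. Their annotation entries for these chains are not among those counted here as mitochondrial. The remaining 2 members were an alternative NADH dehydrogenase and a gene whose description named both an expansin and a complex I subunit. These classes are kept apart in what follows.

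The libraries held 13119658 to 14776699 estimated counts, and libraries of one genotype correlated at r = 0.965 for dek and r = 0.952 for wild type over the genes tested. Zein storage protein genes, which mark starchy endosperm, took 0.528% and 0.847% of counts in dek A and B, against 5.19% and 4.98% in wild type A and B. Basal transfer layer markers took 0.530% and 0.327% of counts in dek, against 0.163% and 0.0392% in wild type, and embryo markers took 0.0251% and 0.0235%, against 0.0833% and 0.0988%. Chlorophyll-binding and Rubisco small subunit genes stayed at 0.00106% to 0.00139% in all 4 libraries. The part of these shifts in the results below was not tested. Levels are given as FPKM, the authors' value per kilobase of gene and scaled to the counted fragments of the library, while fold changes come from counts scaled by TMM, which allows for a few abundant genes taking a different share of each library. Without TMM the log2 fold change of the median gene moved up by 0.31, so an FPKM value higher in dek can stand beside a fold change near 0. A gene is called at a Benjamini-Hochberg adjusted p under 0.05 over the 24624 genes tested.

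Of the 76 tested members, 3 were higher and 7 lower in dek by the edgeR quasi-likelihood test. Of all genes tested, 8.6% were called higher and 9.39% lower, 18.0% in all. The median log2 fold change (dek over wild type) was -0.09 over the members and 0.01 over all genes tested. By the same test, 25 members had an unadjusted p under 0.05. The share of all genes at that unadjusted level is not given here. This count and those by class below are therefore not read as changes. The higher members were a copper chaperone of complex IV and both genes of a small complex III subunit. None of the 7 lower members was a nuclear-type subunit of complexes I to V: 3 were vacuolar ATPase subunits, 3 had plastid-type names and 1 was a delta chain gene of unstated organelle. With a library left out, calls over all genes fell too. Without dek A, 2 members were higher and 0 lower (all genes 1.24% and 2.0%), and without dek B 1 was higher and 1 lower (all genes 1.6% and 2.97%). Without wild type A, 2 were higher and 11 lower (all genes 6.64% and 7.51%), and without wild type B 2 were higher and 1 lower (all genes 5.2% and 5.1%). With total counts in place of TMM, 17 members were higher and 3 lower (all genes 19.5% and 5.43%). The DESeq2 Wald test called 3 higher and 11 lower (all genes 7.89% and 9.93%). Genes with identical values in every library were counted separately here. With such genes counted once, and only members that edgeR tested kept, that Wald test called 9 of 74 lower. The 11 came from a fit of all 83 members. Because whole endosperm was sampled, fewer cells of a type and less RNA per cell cannot be told apart in any of these values.

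The nuclear-type subunits, as a group, lay close to the median gene. Their summed level was 5037 and 5636 FPKM in dek A and B, against 4127 FPKM in wild type A and 4303 FPKM in wild type B. Both dek sums lay above both wild-type sums. In the deposited FPKM, 27 of the 36 had both dek libraries above both wild-type libraries and none had both below, where 51.1% and 17.0% of all genes tested did so. After rescaling by the TMM factors the sums were 4465 and 5140 in dek, against 4611 and 4765 in wild type, and the groups overlapped. On TMM-scaled counts 11 subunits had both dek libraries above and 9 had both below, against 32.9% and 31.5% of all genes. Of the 35 tested, 18 had a positive and 17 a negative log2 fold change, with a median of 0.02 and a range of -0.42 to 1.06. The edgeR quasi-likelihood test called 2 of them higher and none lower, with 9 at an unadjusted p under 0.05, and the DESeq2 Wald test also called 2 and none. With total counts in place of TMM, 13 were called higher and none lower, where 19.5% and 5.43% of all genes were. Their median log2 fold change was then 0.33 and that of all genes 0.32.

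**Figure D1:**
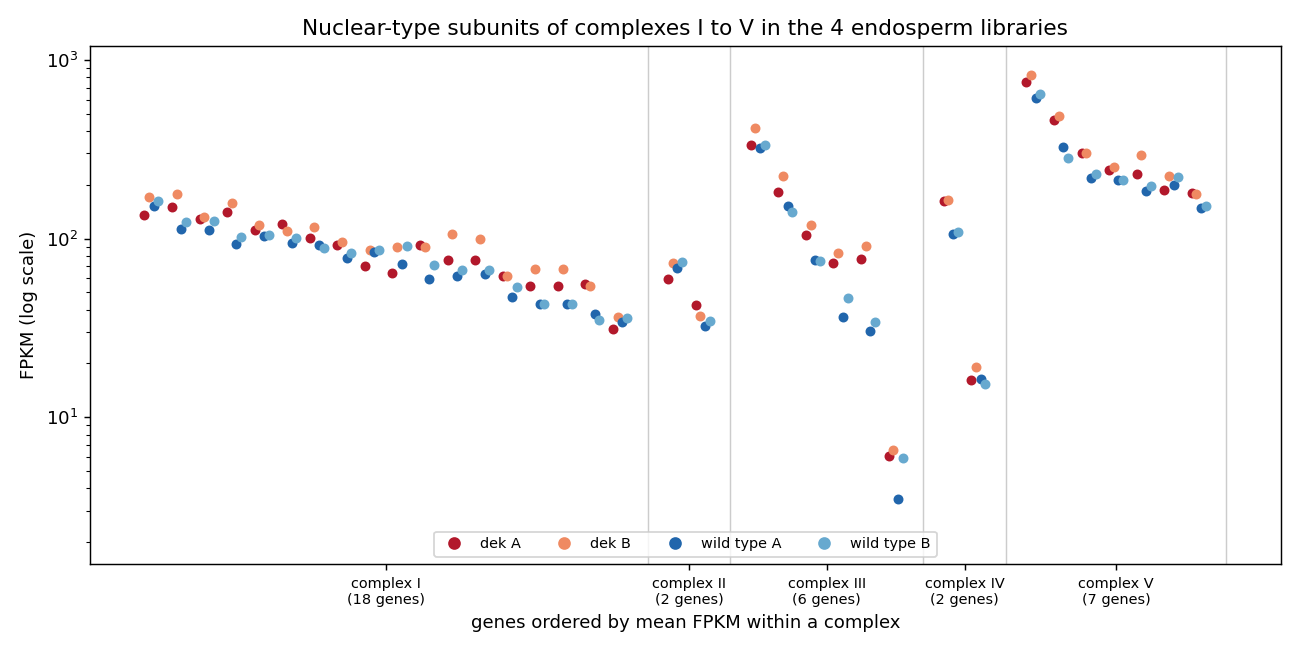
FPKM (log scale) of the 35 tested nuclear-type subunits in each of the 4 libraries, grouped by complex and ordered by mean level within it; each dot is 1 library. The highest gene is the d subunit of complex V at 752 and 822 FPKM in dek, and the widest gaps between dek and wild type are at the last genes above 10 FPKM in complex III.

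Complex I, the entry point for electrons from NADH, had no nuclear-type subunit past the threshold among 18 tested, and 4 had an unadjusted p under 0.05. Their log2 fold changes ran from -0.42 to 0.30 with a median of -0.02, and their summed level was 1618 and 1842 FPKM in dek, against 1384 and 1487 FPKM in wild type. The iron-sulfur protein 6 gene (GRMZM2G059556), whose product belongs to the matrix arm, had 136 and 171 FPKM in dek and 153 and 163 FPKM in wild type. The genotypes overlapped in FPKM, while on TMM-scaled counts both dek libraries lay below both wild-type ones, with a log2 fold change of -0.34 ± 0.15 (SE) that did not pass. The 23 kDa subunit (AC195340.3_FG002), which carries iron-sulfur clusters, had 150.4 and 178 FPKM in dek, against 113 and 124 FPKM in wild type. Its dek libraries were the higher ones in FPKM, but on TMM-scaled counts the groups overlapped and the log2 fold change was 0.17 ± 0.14.

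At the upper end of complex I stood GRMZM2G143651, an accessory subunit annotated as alpha subcomplex subunit 9, with 141 and 158 FPKM in dek and 93.9 and 103 FPKM in wild type. Both dek libraries were above both wild-type ones on either scale, but its log2 fold change of 0.30 ± 0.12 did not pass (edgeR quasi-likelihood, Benjamini-Hochberg adjusted p = 0.139). At the lower end, the 13 kDa-B subunit (GRMZM2G051613) had 70.0 and 86.7 FPKM in dek, against 84.1 and 86.2 FPKM in wild type, a log2 fold change of -0.42 ± 0.15 that also did not pass (edgeR quasi-likelihood, Benjamini-Hochberg adjusted p = 0.0966). Beta subcomplex subunit 8 (AC234161.1_FG010) had 129 and 132 FPKM in dek and 111 and 126 FPKM in wild type, with a log2 fold change of -0.25 ± 0.12. A pair of genes for the 20 kDa subunit (GRMZM2G042034 and GRMZM5G878308) had identical values in every library, so their reads could not be told apart. With the pair counted once, 17 subunits were tested and the median log2 fold change was -0.04. A gene for the 10.5 kDa subunit (GRMZM2G008464) had too few counts to be tested.

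Complex II feeds electrons from succinate and is also an enzyme of the tricarboxylic acid cycle. Its membrane subunit 3 (GRMZM2G039542) had 59.7 and 73.1 FPKM in dek, against 68.6 and 74.2 FPKM in wild type, and a log2 fold change of -0.41 ± 0.15. The iron-sulfur subunit (GRMZM2G302259) had 42.4 and 36.8 FPKM in dek, against 32.6 and 34.7 FPKM in wild type, and a log2 fold change of -0.06 ± 0.12. The description of GRMZM2G302259 also names ribosomal protein S14, so its values may not be those of the subunit alone. In subunit 3 the genotypes overlapped in FPKM, and on TMM-scaled counts both dek libraries lay below both wild-type ones. In the iron-sulfur subunit the dek pair was higher in FPKM, and the genotypes overlapped on TMM-scaled counts. Neither gene passed the test.

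Complex III, which passes electrons from ubiquinol to cytochrome c, had 2 of 6 nuclear-type subunits called higher and none lower. Over all genes tested, the shares were 8.6% and 9.39%. The 6 log2 fold changes had a median of 0.21. Both called genes are annotated as subunit 9, one of the small accessory subunits of the complex. GRMZM2G171476 had 76.5 and 91.2 FPKM in dek, against 30.3 and 34.0 FPKM in wild type. The groups were well apart, and the gene was 2.09-fold higher in dek, a log2 fold change of 1.06 ± 0.16 (edgeR quasi-likelihood, Benjamini-Hochberg adjusted p = 0.00923). The call was lost without dek B (adjusted p = 0.0646 by the same edgeR test) and held in the other 9 alternatives. Its partner GRMZM2G064896 had 73.4 and 83.3 FPKM in dek, against 36.3 and 46.8 FPKM in wild type, 1.55-fold higher in dek (log2 fold change 0.63 ± 0.17; edgeR quasi-likelihood, Benjamini-Hochberg adjusted p = 0.0466). The groups did not overlap, but the call was lost when any 1 of the 4 libraries was left out, where adjusted p reached 0.222 at most by the same edgeR test.

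The other complex III subunits did not pass. A 6.7 kDa protein (GRMZM2G158304) was the most abundant of them, with 334 and 414 FPKM in dek and 320.4 and 334 FPKM in wild type, and a log2 fold change of -0.11 ± 0.14. Subunit 7 (GRMZM2G170457) had 183 and 223 FPKM in dek and 153 and 142 FPKM in wild type, and a log2 fold change of 0.16 ± 0.14. The Rieske iron-sulfur subunit (GRMZM2G171664), the protein that hands electrons on towards cytochrome c, had 104 and 119 FPKM in dek and 75.6 and 75.4 FPKM in wild type, and a log2 fold change of 0.27 ± 0.13. The Rieske gene was higher in both dek libraries on either scale, subunit 7 in FPKM alone, and the 6.7 kDa gene on neither.

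Complex IV, the terminal oxidase, had 1 member past the threshold, an assembly factor. GRMZM2G010933 is a COX17-type copper chaperone, a protein known from yeast to deliver copper for the assembly of cytochrome c oxidase. It had 371 and 273 counts, or 42.5 and 31.6 FPKM, in dek A and B, against 36 and 36 counts, or 4.21 and 4.61 FPKM, in the wild-type libraries. Every dek value was far above every wild-type value. The mean was 37.0 ± 7.69 FPKM in dek and 4.41 ± 0.28 FPKM in wild type (SD, n = 2 each). The gene was 6.75-fold higher in dek, a log2 fold change of 2.76 ± 0.25 (edgeR quasi-likelihood, Benjamini-Hochberg adjusted p = 0.00213). The call held in all 10 alternatives, with log2 fold changes of 2.53 to 3.06 and an adjusted p of at most 0.0278 in those edgeR and DESeq2 fits. By fold change it ranked 467 from the top of the 24624 genes tested.

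The second COX17-type gene did not pass the test. GRMZM2G116517 had 73.5 and 88.8 FPKM in dek, against 64.0 and 73.3 FPKM in wild type, and a log2 fold change of -0.03 ± 0.16. GRMZM2G010933 made up 36.6% and 26.2% of the summed FPKM of the pair in dek, against 6.17% and 5.92% in wild type. GRMZM2G116517 was the more abundant of the pair per kilobase in all 4 libraries. A COX11-type gene (GRMZM2G059981, also a factor of copper delivery to complex IV) had 16.0 and 15.8 FPKM in dek and 9.44 and 10.7 FPKM in wild type, and a log2 fold change of 0.36 ± 0.18 that did not pass. The fourth factor, a COX19-type gene (BGI_novel_G003072), was at 0.76 to 2.24 FPKM in the 4 libraries.

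Nuclear-type subunits of complex IV were few by description. The subunit 5b gene GRMZM2G064753 had 162 and 164 FPKM in dek, against 106 and 109.5 FPKM in wild type, and a log2 fold change of 0.29 ± 0.11 (edgeR quasi-likelihood, Benjamini-Hochberg adjusted p = 0.109). Its groups were apart on either scale, and it was called higher only with total counts in place of TMM. The second 5b gene (GRMZM2G338696) had 16.2 and 19.2 FPKM in dek and 16.3 and 15.3 FPKM in wild type, with overlapping groups and a log2 fold change of -0.16 ± 0.19. The 3 complex I assembly factors had log2 fold changes of 0.06 to 0.29 and none passed. All 7 assembly factors had both dek libraries above both wild-type libraries in FPKM, where 51.1% of all genes did, and 3 of 7 on TMM-scaled counts, where 32.9% did. Their median log2 fold change was 0.29.

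**Figure D2:**
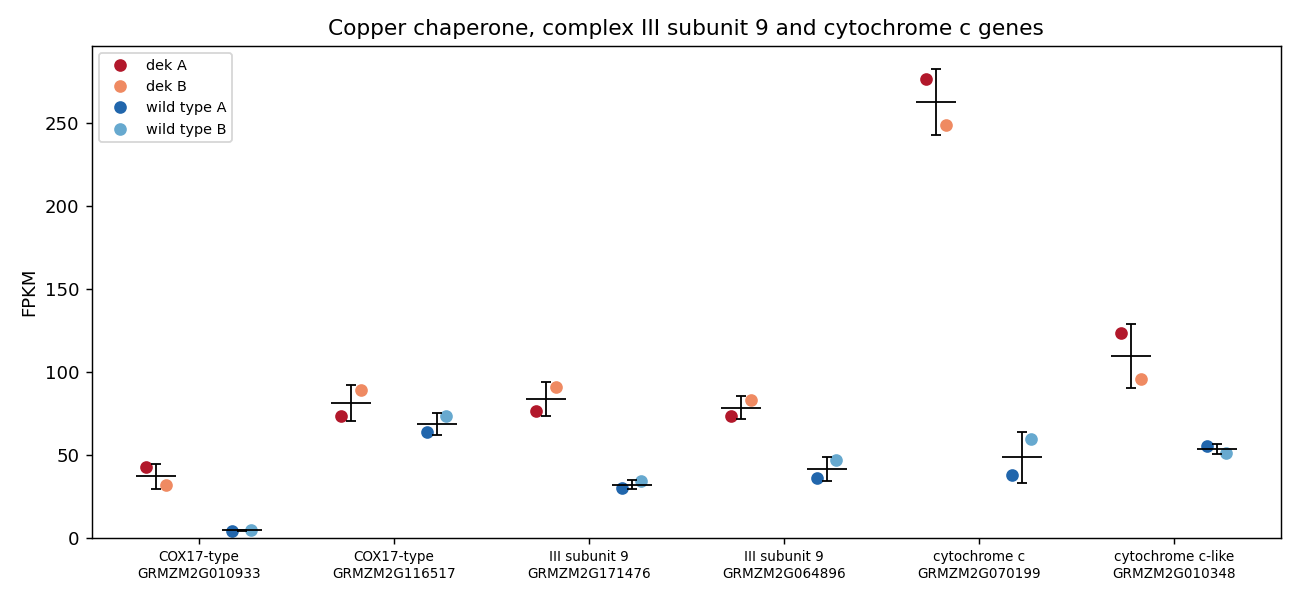
FPKM of both COX17-type copper chaperone genes, both complex III subunit 9 genes and both cytochrome c genes in the 4 libraries; dots are libraries, horizontal bars the means and error bars the SD of 2 libraries. GRMZM2G010933 averages 37.0 FPKM in dek and 4.41 FPKM in wild type, while in GRMZM2G116517 dek and wild type lie close together.

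ATP synthase held the most abundant members, and none of its 7 nuclear-type subunits was called, with 1 at an unadjusted p under 0.05. The summed level was 2362 and 2563 FPKM in dek, against 1900.0 and 1945 FPKM in wild type, and the log2 fold changes ran from -0.33 to 0.34 with a median of 0.02. The d subunit (GRMZM2G157018), part of the stator stalk, was the highest member of all with 752 and 822 FPKM in dek and 612 and 646 FPKM in wild type, and a log2 fold change of 0.02 ± 0.12. A catalytic beta subunit gene (GRMZM2G113408) had 465 and 488 FPKM in dek, against 325 and 284 FPKM in wild type. Its groups were apart on either scale, but the log2 fold change of 0.34 ± 0.13 did not pass (edgeR quasi-likelihood, Benjamini-Hochberg adjusted p = 0.108) and was called only with total counts. The second beta gene (GRMZM2G021331) had 304 and 301 FPKM in dek and 217 and 229 FPKM in wild type, a log2 fold change of 0.13 ± 0.11.

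The central stalk subunits of ATP synthase did not pass the test either. A gamma subunit gene (GRMZM2G321725) had 243 and 251 FPKM in dek and 212 and 212.5 FPKM in wild type, with a log2 fold change of -0.08 ± 0.11. Its dek libraries were the higher pair in FPKM and the lower pair on TMM-scaled counts. The epsilon subunit (GRMZM2G157758) had 187 and 226 FPKM in dek and 201 and 222 FPKM in wild type, with a log2 fold change of -0.33 ± 0.14, the lowest of the complex, and its groups overlapped in FPKM.

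Members with names of mitochondrion-encoded subunits were low and varied between the libraries of one genotype. Their summed level was 132 and 69.2 FPKM in dek A and B, against 95.4 FPKM in wild type A and 270.1 FPKM in wild type B, so the groups overlapped and wild type B stood apart. Of the 18 tested, 16 were highest in wild type B and 15 were lowest in dek B. The edgeR quasi-likelihood test called none of them, with 5 at an unadjusted p under 0.05, and the DESeq2 Wald test called 4 lower, where it called 9.93% of all genes lower. The median log2 fold change was -1.32, with a range of -3.27 to 0.55 and 17 of 18 negative. The gene at -3.27, GRMZM2G369522, had 0 and 5.02 counts in dek and 10.34 and 27.74 in wild type. Only the wild-type counts brought it into the test, so its sign is not independent of that choice. Without wild type A, 0 were called higher and 6 lower, where 6.64% and 7.51% of all genes were, and the median was -1.88. Without wild type B, none was called and the median was -0.70. No source used here says whether polyadenylated RNA was selected, and how far these values follow the transcripts inside the organelle was not tested.

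Single members of this group show the same spread. A gene named as NADH dehydrogenase subunit 3 (GRMZM5G876913), a membrane subunit of complex I, had 44.3 and 15.5 FPKM in dek, against 18.3 and 95.0 FPKM in wild type. One named as cytochrome c oxidase subunit 1 (GRMZM2G450825), the catalytic core of complex IV, had 6.36 and 3.27 FPKM in dek and 6.99 and 14.9 FPKM in wild type. One named as cytochrome c oxidase subunit 2 (GRMZM2G109332) had 19.3 and 10.4 FPKM in dek, against 11.0 and 1.71 FPKM in wild type, and was the only one of the 18 with a positive log2 fold change. The genotypes overlapped in the subunit 3 and subunit 2 genes, and the subunit 1 gene was lower in both dek libraries without passing the test. A pair named as cytochrome c oxidase subunit 3 (GRMZM5G820250 and GRMZM5G884538) had identical values in every library, 1.35 and 1.06 FPKM in dek and 2.29 and 7.20 FPKM in wild type, and is in effect a single measurement. With the pair counted once, 15 of 17 tested genes were highest in wild type B and 14 were lowest in dek B. Of the 17, 16 had a negative log2 fold change, and the median was -1.3. The DESeq2 Wald test then called 3 lower, and 4 had an unadjusted p under 0.05 by the edgeR quasi-likelihood test.

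**Figure D3:**
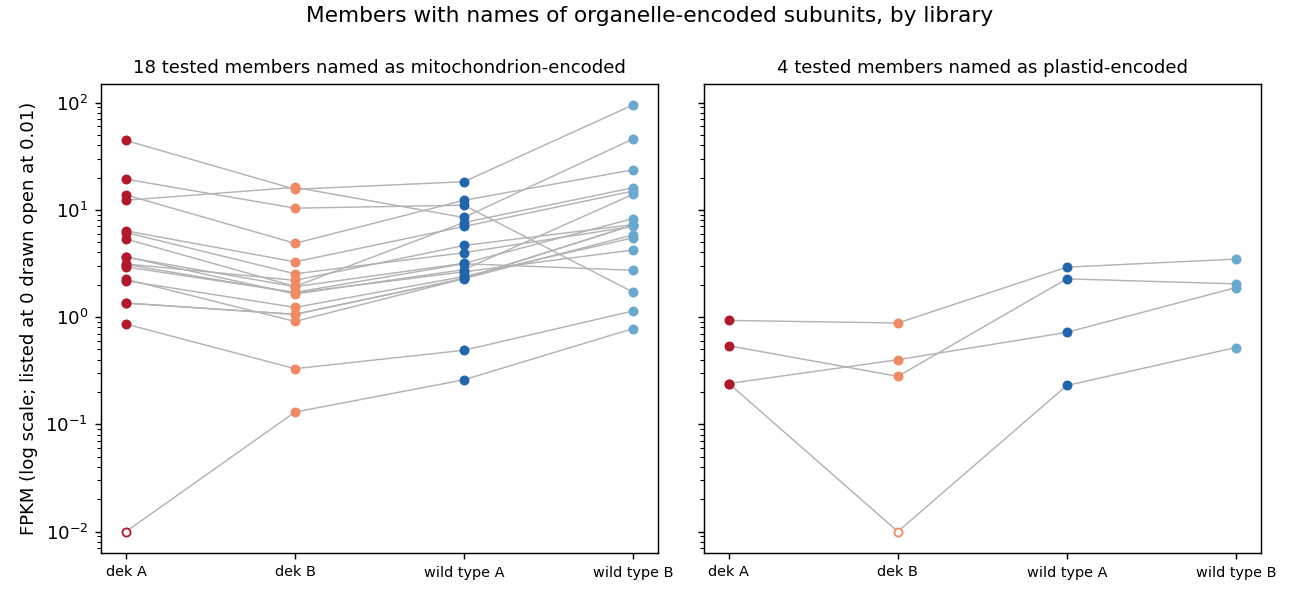
FPKM (log scale) of tested members named as mitochondrion-encoded (left, 18 genes) and plastid-encoded (right, 4 genes) in dek A, dek B, wild type A and wild type B; each line is 1 gene and open dots mark a value listed at 0. On the left, wild type B holds the highest value of 16 genes; on the right, all 4 genes lie higher in wild type B than in either dek library.

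The lower calls fell on members whose annotation does not place them in the mitochondrial complexes. The vacuolar proton ATPase, which acidifies the vacuole, had 3 of 5 subunits called lower, where 9.39% of all genes tested were. The median of the 5 log2 fold changes was -0.41. A subunit F gene (GRMZM2G158766) had 69.9 and 76.0 FPKM in dek, against 84.7 and 105 FPKM in wild type, a log2 fold change of -0.67 ± 0.15 (edgeR quasi-likelihood, Benjamini-Hochberg adjusted p = 0.0296). The second subunit F gene (GRMZM2G008232) had 115 and 142 FPKM in dek, against 156 and 172 FPKM in wild type, a log2 fold change of -0.65 ± 0.15 (edgeR quasi-likelihood, Benjamini-Hochberg adjusted p = 0.0301). A subunit B gene (GRMZM2G094497) had 120.01 and 117 FPKM in dek and 132 and 122 FPKM in wild type, a log2 fold change of -0.41 ± 0.11 (edgeR quasi-likelihood, Benjamini-Hochberg adjusted p = 0.0478). In all 3 genes both dek libraries were below both wild-type libraries. All 3 calls disappeared with total counts in place of TMM and without dek A or wild type B, and 2 of them, GRMZM2G158766 and GRMZM2G094497, also without dek B. The subunit B call was lost without wild type A as well.

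Genes with plastid-type names were at trace levels, with a sum over 8 members of 2.33 and 1.65 FPKM in dek, against 7.96 and 11.2 FPKM in wild type. Of the 4 tested, 3 were called lower, where 9.39% of all genes tested were. The others had too few counts to be tested. GRMZM5G875287, named as subunit IV of the plastid ATP synthase, had 0.93 and 0.88 FPKM in dek, against 2.92 and 3.47 FPKM in wild type, a log2 fold change of -2.14 ± 0.34 (edgeR quasi-likelihood, Benjamini-Hochberg adjusted p = 0.0103). GRMZM2G114952, of the same name, had 0.54 and 0.28 FPKM in dek and 2.27 and 2.04 FPKM in wild type. Its log2 fold change was -2.62 ± 0.63. It had 6.48 and 2.86 counts in dek and 23.9 and 18.58 in wild type. Only the wild-type counts brought it into the test. GRMZM2G448344, named as a beta subunit, had 0.24 and 0.40 FPKM in dek and 0.72 and 1.88 FPKM in wild type, a log2 fold change of -2.33 ± 0.57. Both dek libraries were below both wild-type libraries in each gene, and each of the 3 calls needed both dek libraries. The call of GRMZM2G448344 was also lost without wild type B, and that of GRMZM2G114952 without either wild-type library and by the DESeq2 Wald test. The delta chain gene of unstated organelle, GRMZM2G131575, had 2.30 and 3.75 FPKM in dek, against 5.88 and 6.09 FPKM in wild type, a log2 fold change of -1.25 ± 0.32, and its call was lost when any 1 library was left out and with total counts. Of the other 4 genes of that class, none passed; GRMZM2G025171 had 2.74 and 2.0 FPKM in dek and 0.66 and 0.85 FPKM in wild type, with a log2 fold change of 1.37 ± 0.44. The alternative NADH dehydrogenase (GRMZM2G080044) had 2.27 and 2.41 FPKM in dek and 1.71 and 1.61 FPKM in wild type, and the gene described both as expansin and as a complex I subunit (GRMZM2G051545) had 3.32 and 3.16 FPKM in dek and 2.30 and 2.21 FPKM in wild type. Both had a log2 fold change of 0.19 and did not pass.

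Many chain subunits of maize carry no protein name in the deposited descriptions, so genes outside the members whose KEGG orthology entries all name chain or ATP synthase subunits were looked at as well, a list chosen after the data were seen. It held 66 nuclear-type genes, 58 of them tested, of which 9 were higher and 3 lower. Of all genes tested, 8.6% were called higher and 9.39% lower. The median of their log2 fold changes was -0.03. The 3 lower genes all belonged to complex I, and the 9 higher genes to complexes II to V. In complex I, GRMZM2G018941, annotated as alpha subcomplex subunit 5, had 134 and 157 FPKM in dek, against 351 and 375 FPKM in wild type. Both dek values were far below both wild-type values, and the gene was 3.07-fold lower in dek (log2 fold change -1.62 ± 0.13; edgeR quasi-likelihood, Benjamini-Hochberg adjusted p = 0.00163), a call kept in all 10 alternatives. It shares this entry with the member GRMZM2G051613, whose log2 fold change of -0.42 did not pass. The other lower genes were GRMZM2G163468 (alpha subcomplex subunit 1), at 145 and 159.9 FPKM in dek and 215 and 226 FPKM in wild type, and GRMZM5G864363 (beta subcomplex subunit 9), at 15.9 and 19.6 FPKM in dek and 23.9 and 34.1 FPKM in wild type. The call of GRMZM2G163468 was lost without dek A, and that of GRMZM5G864363 with total counts and without dek A, dek B or wild type B.

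In complex III, 3 of 10 such genes were higher in dek, where 8.6% of all genes tested were. The cytochrome c1 gene GRMZM2G158479, whose product is the electron donor to cytochrome c, had 123 and 125 FPKM in dek, against 62.4 and 64.6 FPKM in wild type (log2 fold change 0.65 ± 0.11; edgeR quasi-likelihood, Benjamini-Hochberg adjusted p = 0.0126). A further Rieske gene (GRMZM2G023194) had 65.8 and 56.0 FPKM in dek and 28.9 and 28.3 FPKM in wild type, and a further subunit 7 gene (GRMZM2G318346) had 73.4 and 75.4 FPKM in dek and 37.4 and 33.9 FPKM in wild type. In all 3 genes the genotypes were well apart. Leaving out dek A removed all 3 calls, and leaving out dek B those of the cytochrome c1 and subunit 7 genes. In complex IV, 2 of 6 were higher, subunits 6a (GRMZM2G177432) and 5b (GRMZM2G439198), with log2 fold changes of 0.54 and 1.06. In complex II, 2 of 8 were higher, the flavoprotein (GRMZM2G064799) and iron-sulfur (GRMZM2G134134) subunits, with log2 fold changes of 0.40 and 0.61. In complex V, 2 of 9 were higher, a beta subunit (GRMZM2G041275, log2 fold change 0.55) and a g subunit (GRMZM2G069229). The g subunit gene had 9.12 and 9.37 FPKM in dek and 0.53 and 0.94 FPKM in wild type, a log2 fold change of 3.38 ± 0.44. It had 89 and 93 counts in dek and 5 and 8 in wild type, and only the dek counts brought it into the test. The calls of these complex II, IV and V genes were each lost without dek A and without dek B and, but for GRMZM2G069229, also without either wild-type library. That of GRMZM2G064799 was lost with DESeq2 size factors as well, and that of GRMZM2G439198 by the DESeq2 Wald test.

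With members and these genes together, 43 nuclear-type genes of complex I were tested, 0 higher and 3 lower by the edgeR quasi-likelihood test. The same test called 8.6% of all genes higher and 9.39% lower. The median log2 fold change of these 43 was -0.12, and 10 had an unadjusted p under 0.05. Complex III had 16 tested, 5 higher and 0 lower, with a median of 0.30. Complex IV had 8 tested, 2 higher and 0 lower, with a median of 0.33. Complex II had 10 tested, 2 higher and 0 lower, with a median of -0.09, and complex V 16 tested, 2 higher and 0 lower, with a median of 0.05. The differences between complexes were not tested. Apart from these, 24 genes had entries of mitochondrion-encoded subunits. Of the 19 tested, 2 were lower and none higher, the median being -1.11, and their summed level was 41.3 and 22.6 FPKM in dek, against 36.9 and 84.4 FPKM in wild type, again with overlapping groups and wild type B highest. The called genes were NADH dehydrogenase subunit 4L (GRMZM2G475482), at 2.09 and 1.17 FPKM in dek and 3.27 and 6.38 FPKM in wild type, and apocytochrome b (GRMZM5G884707), at 0.22 and 0.44 FPKM in dek and 1.46 and 2.56 FPKM in wild type. The apocytochrome b gene had 3.7 and 7.36 counts in dek and 23.9 and 37.83 in wild type. Only the wild-type counts brought it into the test. Neither of these 2 calls held without dek A, dek B or wild type B.

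**Figure D4:**
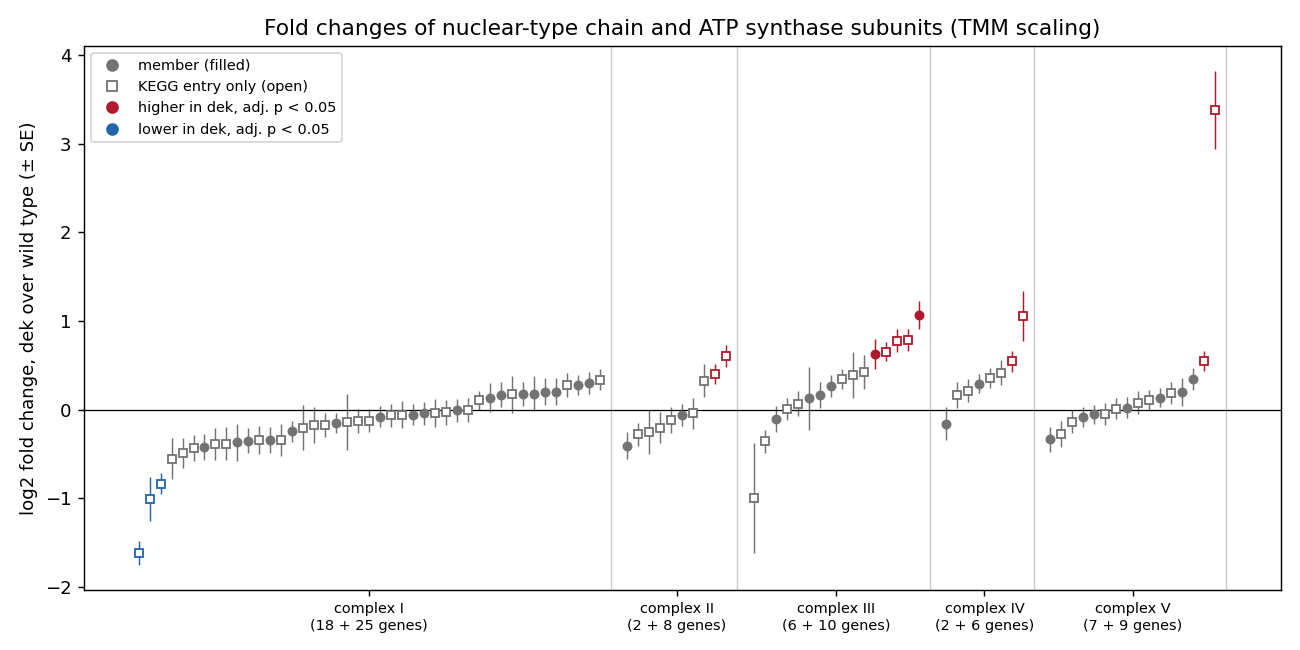
Log2 fold change (dek over wild type, TMM scaling) with its SE for each tested nuclear-type gene of complexes I to V, ordered within a complex; filled circles are members and open squares genes found by KEGG entry alone, with red for higher and blue for lower calls. Complex I holds the 3 lower calls and no higher one, and complexes II to V hold higher calls alone. Over all genes tested, 8.6% were called higher and 9.39% lower, and the differences between complexes were not tested.

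Several genes of the pathway next to the complexes passed the test, by lists that were chosen like the members. Cytochrome c, the mobile carrier between complexes III and IV, had both of its genes higher in dek, where 8.6% of all genes were. GRMZM2G070199 had 277 and 249 FPKM in dek, against 37.6 and 59.4 FPKM in wild type, 4.39-fold higher (log2 fold change 2.13 ± 0.23; edgeR quasi-likelihood, Benjamini-Hochberg adjusted p = 0.00603). GRMZM2G010348 had 123 and 95.9 FPKM in dek, against 55.6 and 51.3 FPKM in wild type, with a log2 fold change of 0.73 ± 0.15 (edgeR quasi-likelihood, Benjamini-Hochberg adjusted p = 0.0232). Both dek values were above both wild-type values in each gene, and neither call held without dek A or without dek B, nor that of GRMZM2G010348 without wild type B. Of 2 tested genes of alternative oxidase, which bypasses complexes III and IV, GRMZM2G125669 was higher at 968 and 721 counts in dek, against 4 and 2 counts in wild type. Only its dek counts brought it into the test. GRMZM2G102349 was lower at 9.16 and 8.16 FPKM in dek, against 18.0 and 14.9 FPKM in wild type, a call that needed both dek libraries.

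The ADP,ATP carrier, which exchanges ATP made by complex V for ADP from the cytosol, had 2 of 4 genes lower and none higher. Over all genes tested, 9.39% were called lower and 8.6% higher. The called gene with the higher mean FPKM, GRMZM5G837108, had 149.8 and 175 FPKM in dek, against 369 and 375 FPKM in wild type. The groups were far apart, and the gene was 2.83-fold lower in dek (log2 fold change -1.5 ± 0.13; edgeR quasi-likelihood, Benjamini-Hochberg adjusted p = 0.00191), a call kept in all 10 alternatives. The other, GRMZM2G138423, was at 2.84 and 3.52 FPKM in dek and 4.89 and 4.98 FPKM in wild type, and its call was lost with total counts and when any 1 library was left out. The carrier gene most abundant in dek was GRMZM2G135186, at 208 and 220 FPKM in dek and 197 and 191 FPKM in wild type. Its log2 fold change of -0.17 ± 0.11 did not pass. None of 3 tested phosphate carrier genes and none of 4 uncoupling protein genes was called by the edgeR quasi-likelihood test. No gene of these last lists had an unadjusted p under 0.05. Their median log2 fold changes were 0.19 and 0.24.

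In the outer membrane, 1 of 4 tested porin genes was higher, none lower (all genes 8.6% and 9.39%). That porin gene, GRMZM2G018417, whose description also names an unrelated protein, had 93.1 and 92.6 FPKM in dek, against 15.7 and 13.7 FPKM in wild type. The libraries of each genotype nearly coincided, and the gene was 5.01-fold higher in dek (log2 fold change 2.32 ± 0.14; edgeR quasi-likelihood, Benjamini-Hochberg adjusted p = 0.000672). Prohibitins, inner membrane scaffold proteins, had 2 of 3 genes higher and none lower. GRMZM2G107114 (prohibitin 2) had 365 and 368 FPKM in dek, against 107 and 117 FPKM in wild type, 2.65-fold higher (log2 fold change 1.40 ± 0.11; edgeR quasi-likelihood, Benjamini-Hochberg adjusted p = 0.00152). The porin and prohibitin 2 calls were kept in all 10 alternatives. A second prohibitin, GRMZM2G410710, had 35.6 and 31.9 FPKM in dek and 11.1 and 16.6 FPKM in wild type, with a log2 fold change of 0.98 ± 0.21, a call lost without dek A, dek B or wild type A.

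The import machinery, which brings nuclear-encoded subunits into the mitochondrion, had 5 of 20 tested genes higher and 2 lower. Over all genes tested, the shares were 8.6% and 9.39%. The median of the 20 log2 fold changes was 0.01. The most abundant called genes, both higher, were a TOM40 channel gene (GRMZM2G120876), at 151 and 133.5 FPKM in dek and 74.0 and 73.4 FPKM in wild type, and a TIM16 gene (GRMZM2G164475), at 72.8 and 81.0 FPKM in dek and 33.2 and 42.9 FPKM in wild type. Both genes had separate groups, with log2 fold changes of 0.64 ± 0.11 and 0.72 ± 0.16, and neither call held without dek A or without dek B, nor that of GRMZM2G120876 without wild type B, nor that of GRMZM2G164475 without wild type A. A lower gene, GRMZM2G070978, picked once its values had been seen, is described as Tim17 family and also as a chloroplastic-like outer envelope pore protein. It had 12.1 and 19.4 FPKM in dek, against 49.9 and 59.8 FPKM in wild type. Both dek values were well below both wild-type values, and the log2 fold change of -2.10 ± 0.26 was called in all 10 alternatives (edgeR quasi-likelihood, Benjamini-Hochberg adjusted p = 0.00682). Ubiquinone synthesis had 2 of 7 genes higher and none lower, a COQ5-type methyltransferase (GRMZM2G065210) at 25.4 and 27.6 FPKM in dek and 15.5 and 14.9 FPKM in wild type, and a COQ9-type gene (GRMZM2G117222) at 17.0 and 15.5 FPKM in dek and 7.09 and 7.22 FPKM in wild type. Both calls were lost when any 1 library was left out, and that of GRMZM2G065210 by the DESeq2 Wald test as well. The single electron transfer flavoprotein gene had a log2 fold change of -0.13 and did not pass.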

How the data were processed

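The authors deposited, for each library, a gene table with a length, an expected count and an FPKM value, per the file headers. The expected counts are, as deposited, RSEM-style estimated counts with no further normalization, and the authors scaled FPKM to gene length and counted fragments, per the file headers. HISAT, Bowtie2, RSEM and GATK are named in the submitters' processing notes without a version or a role. No source used here gives the genome build. Tables list genes above 0 only, and genes not listed for a library were set to 0.

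Expected counts were rounded and tested in edgeR 4.0.16 (R 4.3.3) with a robust quasi-likelihood fit, TMM factors (dek A 1.13, dek B 1.10, wild type A 0.895, wild type B 0.903) and filterByExpr, which left 24624 genes. The biological coefficient of variation was 0.226. Tests were two-sided with a threshold of 0.05 on the Benjamini-Hochberg adjusted p, and SEs were derived from the log2 fold change and its F statistic. The p-values cover the spread between pools of kernels. Members and lists were chosen with earlier results of these data known. Named members are all those past the threshold and, in each complex, the 4 highest by mean FPKM and the highest and lowest fold change at a mean of at least 10 FPKM; from other lists at most 2 called genes with the highest mean FPKM. Members of the mitochondrion-encoded class, assembly factors that were not called, genes found by KEGG entry and a few other members were picked once their values had been seen. Of the members, 47 matched a RefSeq entry, and no sequence is shown because no sequence table was used here.

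Alternatives were total counts alone, DESeq2 size factors, the DESeq2 1.42.0 Wald test, a replicate block by the title's letter, no filter on low counts, a stricter one (50 counts in 2 libraries), FPKM rescaled by TMM, and each library left out in turn. With 1 library left in a group, the lone library was assumed to vary like the other genotype. The fit was tested on simulated data with 200 changed genes. It called 5 of 50 genes changed 1.5-fold, 14 of 50 changed 2-fold, 42 of 50 changed 4-fold and 43 of 50 changed 8-fold. It also called 30 of 24424 unchanged genes. Changes near 1.5-fold or 2-fold thus often went uncalled in this simulation. The simulation changed a far smaller share of genes than the 18.0% called in these libraries. Its recovery and its false calls need not hold for them. Python 3.11.15, pandas 2.3.3 and matplotlib 3.10.9 served for tables and figures.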

Additional observations from a re-analysis of the deposited data

How the results depend on the processing

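The count of 3 higher and 7 lower members and their median log2 fold change of -0.09 depended on the scaling and on single libraries. With total counts alone, 17 members were higher and 3 lower and the median was 0.21, in a setting that moves the median gene up by 0.31. The DESeq2 Wald test called 11 lower in a fit of all 83 members. Among the 74 members that edgeR tested, with identical genes counted once, it called 9 lower. Over the nuclear-type subunits alone, a choice made after seeing the data, 0 were lower. The log2 ratio of summed FPKM of these subunits was 0.34 as deposited and 0.03 after rescaling by the TMM factors. Leaving out each library in turn gave 1 to 2 higher, 0 to 11 lower and medians of -0.26 to -0.07: 0 lower without dek A, 1 higher and 1 lower without dek B, 11 lower without wild type A and 1 lower without wild type B. The labels do not say that title letters pair the pools, and deviations of same-letter libraries correlated at r = -0.022 over genes. A replicate block by letter gave 2 higher and 4 lower members, where 3.77% and 4.9% of all genes were called. It lost 4 of the 10 called members (GRMZM2G064896, GRMZM2G094497, GRMZM2G114952 and GRMZM2G131575) and 13 of 32 called genes outside them. DESeq2 size factors and both low-count filters kept the counts within 1.5 times. The cause of these differences was not tested. Of 27 named members, total counts alone brought 7 more past the threshold and lost 4, and leaving out dek A or dek B lost 8 each. No named member with a call changed direction. The 2 libraries per genotype limit what can be called.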

Other observations

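Several subunits were covered by more than 1 member gene, and the balance within such sets was described by each gene's share of the set's summed FPKM. The complex III subunit 9 pair was split nearly evenly: GRMZM2G171476 made up 51.0% and 52.2% in dek, against 45.5% and 42.0% in wild type. Of the beta subunit pair of ATP synthase, GRMZM2G113408 made up 60.5% and 61.8% in dek, against 59.9% and 55.4% in wild type. Of the subunit 5b pair, GRMZM2G338696 was the minor gene, with 9.09% and 10.5% in dek and 13.3% and 12.2% in wild type. The gamma subunit and complex I assembly factor 6 pairs kept nearly the same split in all 4 libraries, GRMZM2G321725 at 57.4% and 58.5% in dek and 58.7% and 58.3% in wild type, and GRMZM2G011915 at 69.4% and 71.4% in dek and 69.5% and 71.1% in wild type. These shares cover member genes alone and were not tested. Outside the members, a further beta gene (GRMZM2G041275) had 136 and 141 FPKM in dek, against 76.8 and 76.55 FPKM in wild type. A further 5b gene (GRMZM2G134738) had 135 and 150 FPKM in dek and 95.0 and 104 FPKM in wild type. The 5b gene GRMZM2G439198 was also left out of the shares. Reads of close copies can be divided unequally by the counting, which bears on each of these values.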
